A study of Mus musculus with 2 samples.

Results

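The miR-106b-25 and miR-106a-363 clusters are the 2 relatives of the miR-17-92 cluster in the mouse genome. Their 9 hairpin genes were chosen by name and cluster, with no threshold on a measured value: Mir106b, Mir93 and Mir25 on chromosome 5, and Mir106a, Mir18b, Mir20b, Mir19b-2, Mir92-2 and Mir363 on chromosome X. All 9 have a row among the 1973 microRNA genes of the count tables. The samples were 2 libraries of small RNA from whole kidney of B6NCrl mice at postnatal day 0. Both kidneys of a pup, 2 in number, went into its library, and the labels place the pups in 1 pregnancy, with no treatment, altered allele or sex given. Pup 2 and pup 1 are the replicates of this single group, so the comparisons possible are those between genes and that between pups.

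MicroRNAs of these clusters are cut from shared primary transcripts, and each mature microRNA finds its target messenger RNAs mainly through its seed, the bases 2 to 8 from its 5′ end. The miR-17-92 group is known from proliferating progenitors, in the kidney from nephron progenitors, whose loss of miR-17-92 in mice lowers nephron number. Mice that lack miR-106b-25 or miR-106a-363 alone are viable, while joint loss of miR-17-92 and miR-106b-25 is lethal in mouse embryos. In human cells miR-106b and miR-93 are known to repress the cell cycle inhibitor CDKN1A, and miR-25 the pro-apoptotic BCL2L11.

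The members fall into 4 seed families, and the mature sequences of the arms known as the functional ones are shown because microRNAs with the same seed share many of their predicted targets. Sequences are those of RefSeq (GRCm38.p6), all 9 genes matched by symbol, and capitals mark the seed. The AAAGUGC seed of the miR-17 family is carried by 4 members, shown with miR-17-5p as the comparison.
miR-106b-5p: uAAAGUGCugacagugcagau
miR-93-5p: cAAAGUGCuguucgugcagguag
miR-106a-5p: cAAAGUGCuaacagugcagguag
miR-20b-5p: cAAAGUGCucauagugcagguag
miR-17-5p: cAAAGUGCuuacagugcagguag
The AUUGCAC seed of the miR-92 family is carried by 3 members.
miR-25-3p: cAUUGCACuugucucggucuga
miR-92a-3p (Mir92-2): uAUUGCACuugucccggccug
miR-363-3p: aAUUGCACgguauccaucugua
The AAGGUGC seed of the miR-18 family and the GUGCAAA seed of the miR-19 family each have 1 member, both on chromosome X.
miR-18b-5p: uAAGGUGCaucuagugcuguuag
miR-19b-3p (Mir19b-2): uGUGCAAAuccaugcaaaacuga

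Counted from 1 at the 5′ end, miR-106a-5p differs from miR-17-5p by 1 substitution, U10A. miR-20b-5p differs from miR-17-5p by U10C and C12U. miR-93-5p differs from it by 4 substitutions, U10G, A11U, C12U and A13C, and miR-106b-5p, which is 2 bases shorter, by C1U, U10G and G20A. All of them lie outside the seed.

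A count in these tables belongs to a hairpin, so the 2 arms of a hairpin were not separated, and a read that matches more than 1 place is listed apart from the gene counts. This matters for 2 members, Mir92-2 and Mir19b-2, whose mature sequence is the same as that of Mir92-1 and Mir19b-1 of miR-17-92. The hairpins are shown around that sequence, in capitals, with 3 bases before and 4 after it.
Mir92-2: aagUAUUGCACUUGUCCCGGCCUGagga
Mir92-1: uggUAUUGCACUUGUCCCGGCCUGuuga
Mir19b-2: ggcUGUGCAAAUCCAUGCAAAACUGAuugu
Mir19b-1: ugcUGUGCAAAUCCAUGCAAAACUGAcugu
The longest stretch shared by the Mir92 hairpins is 22 bases and that of the Mir19b hairpins 25 bases, and a read that lies wholly within such a stretch matches both hairpins. Multimapping reads made up 31.0% of reads in pup 2 and 30.3% in pup 1, and how many of them belong to these genes was not measured. In both pairs the whole mature sequence lies within the shared stretch, so a read of exactly that sequence is in neither gene's count. Levels of Mir92-2 and Mir19b-2 are therefore those of other reads that were placed at the hairpin. In each pair the hairpins differ at the first base after the mature sequence. Whether reads placed by such a base came from that hairpin was not tested. The other 7 members share at most 17 bases with any other hairpin in RefSeq, the longest being that of Mir18b with Mir18.

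On mm10, with positions counted from 1, miR-106b-25 spans 498 bases of the minus strand of chromosome 5. Mir106b (ENSMUSG00000065514.1) lies at chr5:138165737-138165818, Mir93 (ENSMUSG00000065527.1) at chr5:138165523-138165610 and Mir25 (ENSMUSG00000065394.1) at chr5:138165321-138165404. All 3 lie in the gene Mcm7, which encodes a subunit of the replicative DNA helicase, and on its strand. Of the 10 annotated Mcm7 transcripts, 2 have an intron at each of the 3 hairpins, and 1 has an exon at Mir93 and 1 at Mir25. The miR-106a-363 cluster spans 875 bases of the minus strand of chromosome X, in the order Mir106a, Mir18b, Mir20b, Mir19b-2, Mir92-2 and Mir363 from its 5′ end. Mir106a (ENSMUSG00000065456.1, chrX:52742503-52742567) overlaps an exon of the noncoding gene Kis2 in all 4 of its transcripts, while the other 5 hairpins overlap no other gene of GENCODE M21 that could be a host (small RNA genes left out). They are Mir18b (ENSMUSG00000077111.2, chrX:52742331-52742413), Mir20b (ENSMUSG00000076041.1, chrX:52742113-52742192), Mir19b-2 (ENSMUSG00000065473.1, chrX:52741983-52742066), Mir92-2 (ENSMUSG00000065613.1, chrX:52741838-52741928) and Mir363 (ENSMUSG00000070106.1, chrX:52741693-52741767).

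The libraries held 3846704 counts on the strand of microRNA genes in pup 2 and 5832192 in pup 1. Values are CPM, counts scaled by these totals, not divided by length, since a small RNA read spans the whole mature microRNA. Means are given ± SD with n = 2 pups. The epithelial miR-200 genes, 5 of 5 counted, held 3.17% of counts in pup 2 and 3.16% in pup 1, and the 4 listed genes of the proximal tubule 0.0896% and 0.0848%. The 4 listed leukocyte genes with a row held 0.0672% in pup 2 and 0.0735% in pup 1, and the liver marker Mir122 had 44.2 and 56.9 CPM. Of the 5 striated muscle genes with a row, 4 were at 0 in both pups, which does not bound those with an identical copy elsewhere.

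In placed reads, nearly all counts of the paralogs came from chromosome 5, 94.6% in pup 2 and 94.4% in pup 1. Reads of the mature sequences of Mir92-2 and Mir19b-2 are left out of the miR-106a-363 sum, and values with them were not measured. No miR-106b-25 gene shares its mature sequence with another gene. The miR-106b-25 cluster held 1.27% of all counts in pup 2 (Wilson limits at 95%, 1.25 and 1.28), and in pup 1 it held 1.36% (1.35 and 1.37). The miR-106a-363 cluster held 0.0723% in pup 2 (0.0697 and 0.0751), and in pup 1 it held 0.0802% (0.0779 and 0.0825). Each miR-106a-363 count thus stood against 17.5 counts of miR-106b-25 in pup 2 and 17.0 in pup 1, a ratio of 17.2 ± 0.36. Such intervals hold for counting error alone, since PCR copies without molecular identifiers are not separate molecules. In whole tissue fewer cells of a type and less RNA per cell cannot be told apart. Over all reads of the tables, multimapping and unmapped ones included, the mean shares were 0.76% and 0.0441%.

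The 2 miR-17 family members of the chromosome 5 cluster led the paralogs. Mir93 had 6563 CPM in pup 2 and 7429 CPM in pup 1, the highest level of the 9 genes and rank 25 of the 1973 genes in both pups. Mir106b had 5319 CPM in pup 2 and 5355 CPM in pup 1. It was below Mir93 in both pups, and the gap between their means, 1659 CPM, exceeded both of their SDs. Mir25, of the miR-92 family, was the lowest of its cluster with 771 CPM in pup 2 and 832 CPM in pup 1. Mir106b exceeded Mir25 6.90-fold in pup 2 and 6.44-fold in pup 1, and both hairpins lie within the same host gene. Whether the libraries captured each sequence equally well was not tested, here or for other ratios between genes.

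On chromosome X, Mir106a and Mir20b of the miR-17 family were highest. Mir106a had 264 CPM in pup 2 and 296 CPM in pup 1. Mir20b had 230.3 CPM in pup 2 and 263 CPM in pup 1. These neighbours were close: Mir106a stood above Mir20b 1.15-fold in pup 2 (95% counting interval 1.05 to 1.26) and 1.13-fold in pup 1 (1.05 to 1.21), and the gap of 33.8 CPM exceeded the SD of either, 22.7 and 22.8 CPM, only narrowly.

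The 2 miR-92 family members of that cluster came next. Mir363 had 151 CPM in pup 2 and 162 CPM in pup 1. Mir92-2 had 55.4 CPM in pup 2 and 60.0 CPM in pup 1. The miR-92 sequence is known in endothelial cells as a brake on vessel growth. Mir363 was 2.73-fold higher than Mir92-2 in pup 2 and 2.70-fold higher in pup 1, counting placed reads of Mir92-2 only.

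The lowest members were those of the miR-18 and miR-19 families. Mir18b had 16.4 CPM in pup 2 and 16.6 CPM in pup 1, from 63 and 97 counts. Mir19b-2 had 5.98 CPM in pup 2 and 4.29 CPM in pup 1, from 23 and 25 counts. Mir19b-2 was the only member under 10 CPM, yet above the limit of 3 counts that goes with a count of 0, or 0.780 CPM in pup 2 and 0.514 CPM in pup 1. In all, 8 of the 9 members reached 10 CPM in both pups, against 12.5% of the 1973 genes, and 6 reached 100 CPM. The share of all genes at 100 CPM was not counted, but Mir363, the lowest of the 6, ranked 150 of the 1973 genes in pup 2 and 148 in pup 1. None of the 9 had a read on the opposite strand in either pup. How many of all genes had none was not counted, so this is not read as a trait of the members.

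**Figure D1:**
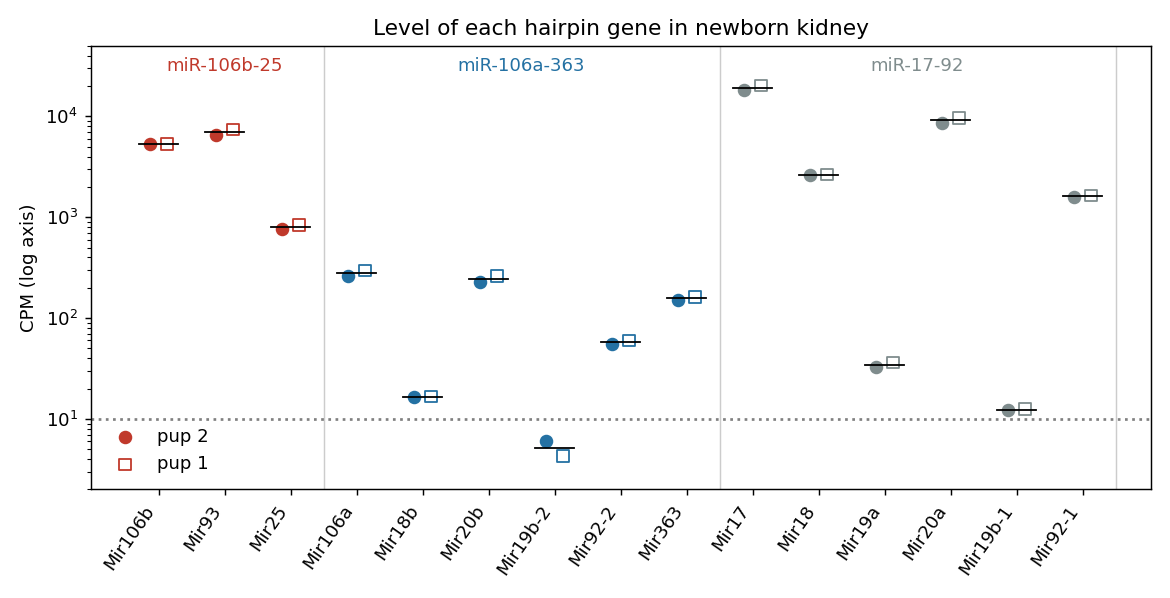
Level of each hairpin gene in CPM (log axis), for miR-106b-25, miR-106a-363 and, for comparison, miR-17-92; filled circles are pup 2, open squares pup 1, black bars the mean, and the dotted line 10 CPM. In placed reads the miR-106b-25 genes sit between 771 and 7429 CPM, all above the miR-106a-363 genes, the highest of which is Mir106a at 296 CPM in pup 1.

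In placed reads the order of the 9 levels was Mir93, Mir106b, Mir25, Mir106a, Mir20b, Mir363, Mir92-2, Mir18b and Mir19b-2 in both pups. Each gap between neighbours exceeded the SD of both genes, although an SD of 2 pups is itself imprecise. In CPM the SD over the pups was 0.47% of the mean for Mir106b, 8.75% for Mir93 and 23.3% for Mir19b-2, with the other 6 members between 1.09% and 9.23%.

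For the 6 members over 100 CPM, the gene nearest in level that is none of the 9 was found by the absolute difference of mean log2 CPM over the 2 pups. Mir130b, at 5183 ± 122 CPM, lay nearest to Mir106b (5337 ± 25.2 CPM). Mir98, at 5713 ± 2.13 CPM, lay nearest to Mir93 (6996 ± 612 CPM), 0.29 away on the log2 scale. Those nearest to the other 4 lay at most 0.021 away. They were Mir467e (801 ± 11.8 CPM) for Mir25 (801 ± 43.4), Mir125b-2 (278 ± 10.4) for Mir106a (280.2 ± 22.7), Mir421 (249.7 ± 16.4) for Mir20b (246 ± 22.8), and Mir154 (159 ± 1.75) for Mir363 (157 ± 7.47).

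Levels did not follow the order of the hairpins along either transcript. In miR-106b-25 the middle hairpin, Mir93, was the highest and held 51.9% of the cluster's counts in pup 2 and 54.6% in pup 1. In placed reads of miR-106a-363 Mir106a, the first hairpin, and Mir20b, the one after Mir18b, held 36.5% and 31.8% in pup 2 and 37.0% and 32.7% in pup 1. The last hairpin, Mir363, held 20.9% in pup 2 and 20.2% in pup 1, while Mir18b held 2.26% and 2.07%. The miR-17-92 cluster also had its highest levels at hairpins that are not neighbours, Mir17 and Mir20a, with 18258 and 8609 CPM in pup 2 and 20239 and 9627 CPM in pup 1.

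**Figure D2:**
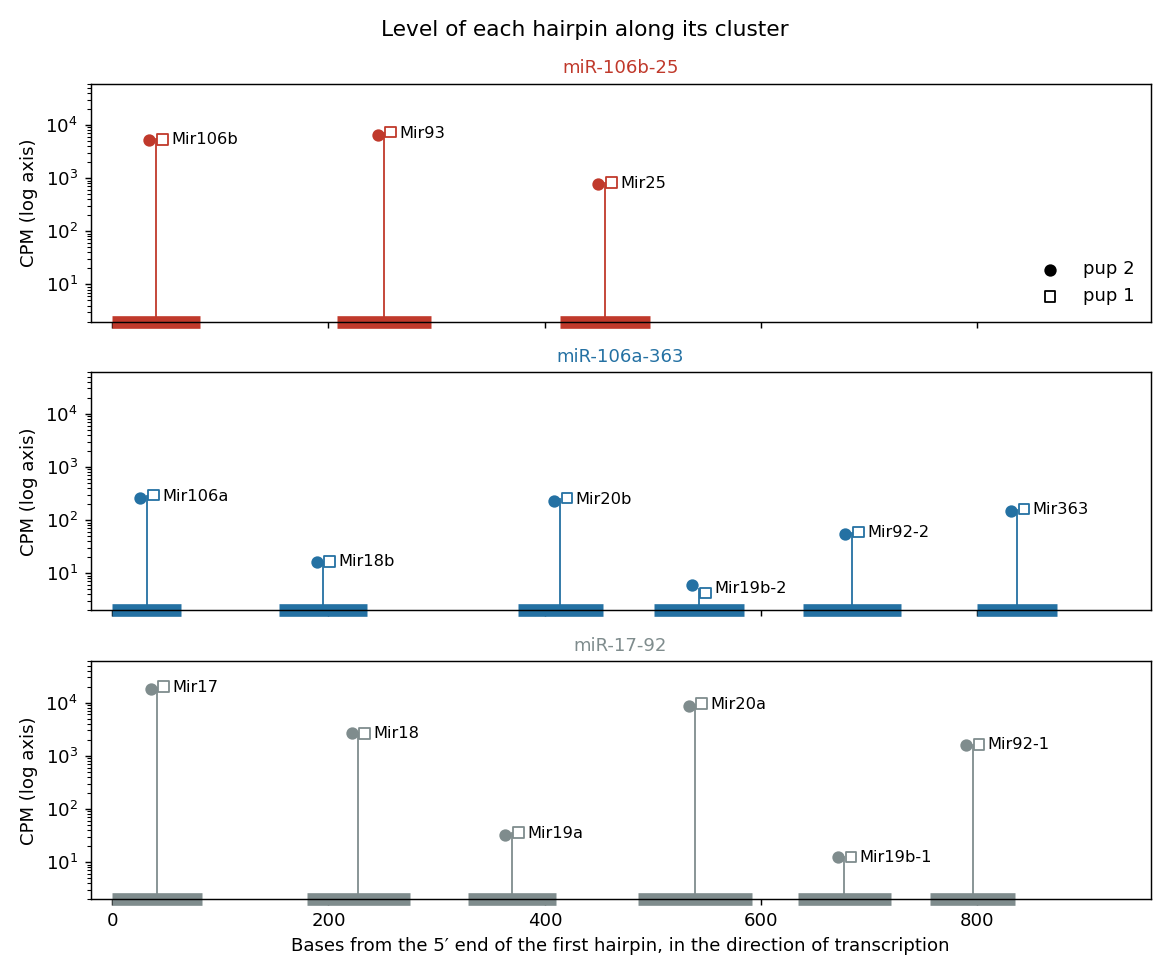
Level in CPM (log axis) of each hairpin against its distance in bases from the 5′ end of the first hairpin of its cluster; thick bars show the hairpins to scale, filled circles pup 2 and open squares pup 1. In miR-106a-363 the low Mir18b (16.5 ± 0.18 CPM) lies between Mir106a and Mir20b, the highest of that cluster.

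Beside miR-17-92, the paralogs were the lesser source in placed reads. Reads that match hairpins of both miR-17-92 and miR-106a-363 are left out of both sums, and the split with them was not measured. Of the counts of all 3 clusters, miR-106b-25 held 28.4% in pup 2 and 28.0% in pup 1, and miR-106a-363 held 1.63% in pup 2 and 1.65% in pup 1. The miR-106b-25 sum was 0.406 of the miR-17-92 sum in pup 2 and 0.398 in pup 1. Each miR-106a-363 count stood against 43.0 counts of miR-17-92 in pup 2 and 42.7 in pup 1.

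In counts, the distance of miR-106a-363 below miR-17-92 differed from hairpin to hairpin. The paired sequences are not all the same, and whether they were captured equally well was not tested. Mir17 stood 69.1-fold above Mir106a in pup 2 and 68.3-fold in pup 1, and Mir20a stood 37.4-fold above Mir20b in pup 2 and 36.7-fold in pup 1. For the miR-18 pair the distance was widest, with Mir18, the hairpin of miR-18a, at 161-fold the level of Mir18b in pup 2 (95% counting interval 126 to 209) and 159-fold in pup 1 (130.3 to 196). The pairs with the same mature sequence were compared in placed reads alone, which leave out reads of exactly that sequence. There Mir92-1 exceeded Mir92-2 28.7-fold in pup 2 and 27.3-fold in pup 1, and Mir19b-1 exceeded Mir19b-2 2.04-fold (1.22 to 3.53) and 2.92-fold (1.83 to 4.80). The order of these 5 distances was the same in both pups.

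Summed by the seed of the arm shown above, the paralogs contributed unequally to the families. These are hairpin counts, so reads of the other arm are included. Shares within the miR-92 and miR-19 families are those of placed reads, since reads of miR-92a-3p and miR-19b-3p that match both of their hairpins are left out, and the shares with those reads were not measured. Among the 3 clusters, miR-106b-25 supplied 30.3% of the miR-17 family in pup 2 (Wilson limits 30.0 and 30.5) and 29.6% in pup 1 (limits 29.4 and 29.8), while miR-106a-363 supplied 1.26% and 1.29%. Of the miR-92 family counts, Mir25 supplied 30.0% in pup 2 and 30.9% in pup 1, and Mir363 with Mir92-2 supplied 8.04% and 8.23%. In the miR-18 family Mir18b supplied 0.618% in pup 2 and 0.625% in pup 1, the rest being Mir18. In the miR-19 family Mir19b-2 supplied 11.7% in pup 2 (7.95 to 17.0) and 8.06% in pup 1 (5.52 to 11.6), out of 196 and 310 counts in all.

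In placed reads, the makeup of the clusters differed in the miR-92 family, of which Mir92-1 and Mir92-2 lack any reads that match both. That family held 28.6% of miR-106a-363 counts in pup 2 (Wilson limits 26.9 and 30.3) and 27.7% in pup 1 (limits 26.4 and 29.0). It held 6.09% of miR-106b-25 counts in pup 2 and 6.11% in pup 1, and 5.11% and 4.80% of miR-17-92 counts. The distance between miR-106a-363 and the other clusters in placed reads was larger than the spread between pups. The other clusters have 1 hairpin of that family each, while miR-106a-363 has 2. Mir363 held 20.9% and Mir92-2 7.65% of miR-106a-363 counts in pup 2, and 20.2% and 7.49% in pup 1. The miR-17 family held 68.3% of miR-106a-363 counts in pup 2 and 69.7% in pup 1, against 93.9% of miR-106b-25 counts in both.

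**Figure D3:**
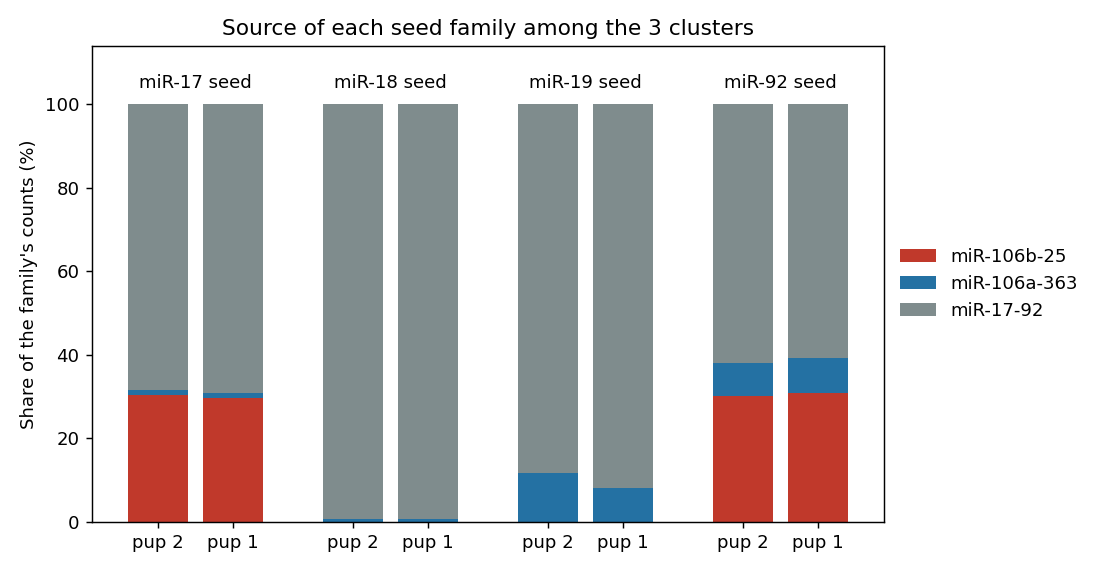
Share, in percent, of each seed family's counts in placed reads that came from miR-106b-25, miR-106a-363 and miR-17-92, for pup 2 and pup 1. Red bars near 30% appear in the miR-17 and miR-92 families, and miR-106b-25 holds no member of the miR-18 and miR-19 families.

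Other genes carry the same seeds. RefSeq lists the AUUGCAC seed in 7 genes, of which Mir32, Mir92b and Mir367 lie outside the 3 clusters. Mir32 had 217 CPM in pup 2 and 213 CPM in pup 1, and Mir92b had 72.3 and 88.3 CPM, so both lay between Mir25 and Mir92-2. Mir367 had 0 counts in both libraries, for which the limits above of 0.780 and 0.514 CPM hold. The AAAGUGC seed is listed for 7 genes, and Mir6383, the one outside the clusters, likewise had 0 counts in both pups.

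Between the pups the absolute log2 ratios of the 9 members had a median of 0.14, against 0.15 over all tested genes. Log2 ratios are of pup 2 over pup 1 with TMM-scaled totals, tested per gene by an exact two-sided binomial test with Benjamini-Hochberg adjustment over the 324 genes that averaged 10 counts or more. Each side is 1 library, so the test compares 2 libraries and covers counting error only. All 9 members were tested, 4 passed as lower in pup 2 and 0 as higher, where 21.0% of all tested genes passed as lower and 12.7% as higher (33.6% in all). The members' median log2 ratio was -0.13, that of all tested genes -0.04.

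The 4 that passed were Mir93, Mir25, Mir20b and Mir106a. Mir93 had a log2 ratio of -0.20 (95% counting limits -0.22 and -0.18; adjusted p = 5.32e-68, exact binomial test), from 25246 counts in pup 2 and 43325 in pup 1. Mir25 had -0.13 (-0.20 to -0.07, adjusted p = 0.00047 by the same exact test), from 2965 and 4853 counts. Mir20b had -0.21 (-0.33 to -0.09, adjusted p = 0.00249) and Mir106a -0.19 (-0.30 to -0.07, adjusted p = 0.00454), both by the exact binomial test. Of the others, Mir106b had -0.03 (-0.06 to -0.01, adjusted p = 0.0531 by the exact test), and the intervals of Mir363 (-0.12), Mir92-2 (-0.14), Mir18b (-0.04) and Mir19b-2 (0.46) included 0. With DESeq2 size factors in place of TMM the ratios of Mir106b and Mir18b turned to 0.01 and 0.003, while the same number of members, 4, passed. With the spread between the pups as dispersion (edgeR exact test, biological coefficient of variation 9.29%), 0 of the 9 members passed, 0 had an unadjusted p under 0.05, and 1 of 324 genes, Mir451a, passed. That dispersion came from the same 2 libraries that the test compared. A gene with a typical difference between the pups could thus hardly pass, and no conclusion about the members is drawn from it.

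Within the chromosome 5 cluster the balance of its hairpins differed between the 2 libraries. Mir93 stood at 1.23 times Mir106b in pup 2 (95% counting interval 1.21 to 1.26) and 1.39 times in pup 1 (1.37 to 1.41), and these intervals did not overlap. The part of the cluster held by Mir25 differed by less than counting error, with 6.09% in pup 2 (5.88 to 6.31) and 6.11% in pup 1 (5.95 to 6.28). For each hairpin of miR-106a-363 the Wilson intervals of its share in pup 2 and pup 1 overlapped. That cluster had only 2783 and 4675 counts, against 48673 and 79409 of miR-106b-25. In miR-17-92 such intervals were apart for Mir17, Mir18, Mir20a and Mir92-1 and overlapped for Mir19a and Mir19b-1. Mir18 held 8.45% of it in pup 2 (8.30 to 8.61) and 7.74% in pup 1 (7.62 to 7.85). Of all tested genes, 33.6% passed the exact binomial test between the pups. All these intervals cover counting error alone. The difference between the libraries in Mir93 over Mir106b has no replicate check, and repeat libraries of a single pup were not analysed here.

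Cell type markers also differed between the libraries. The endothelial Mir126a held 8.72% of counts in pup 2 and 7.20% in pup 1, and the 6 listed genes of mesenchyme and smooth muscle 4.46% and 4.03%. Of those 6, Mir143 (39014 CPM in pup 2 and 34820 in pup 1) and Mir145a (1148 and 1039) were higher in pup 2, and the other 4 were lower. The erythroid Mir451a, Mir144 and Mir486, none at 0, held 0.00988% together in pup 2 and 0.0241% in pup 1. That sum followed Mir451a, with 53.6 CPM in pup 2 and 208 CPM in pup 1, while Mir144 (42.9 and 32.2 CPM) and Mir486 (2.34 and 0.69 CPM) were higher in pup 2. Their part in the paralogs' differences between pups was not tested.

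**Figure D4:**
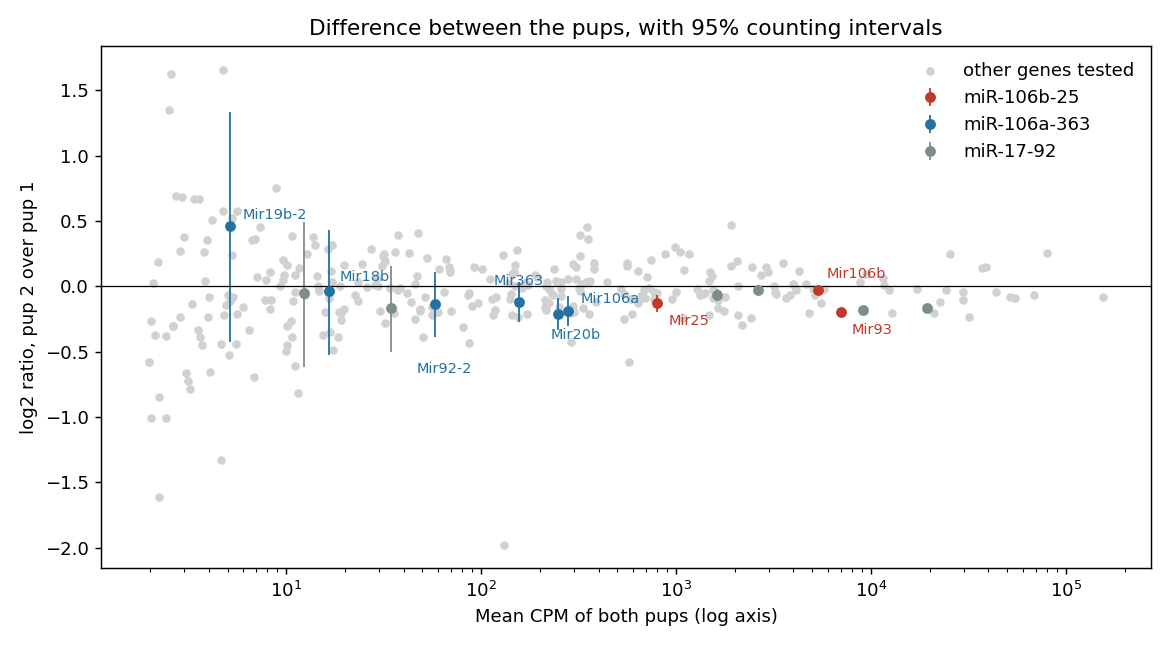
Log2 ratio of pup 2 over pup 1 against mean CPM (log axis) for the 324 tested genes; coloured points are the clusters with 95% counting intervals, grey points the other genes. Mir93 lies at -0.20 and Mir106b at -0.03. With TMM scaling 8 of the 9 paralogs lie below 0, as do all 6 miR-17-92 genes and 188 of the 324 tested genes. With DESeq2 size factors 6 of the paralogs lie below 0, and the median of all tested genes is 0.0008.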

How the data were processed

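The deposited tables give whole-number read counts per gene, not normalized, in 3 columns without a header. Reads were aligned to mm10 and counted over annotation release M4, per the deposited notes with the tables. The sources used here do not name the aligner, trimming or filters. Leading rows carry names used by the STAR aligner. In both libraries each column and its row for unassigned reads add to the same total, which does not tell the strands apart. The column taken as reads on the gene's strand held 3846704 counts in pup 2 and 5832192 in pup 1, against 78841 and 121726 in the column taken as the other strand. That reading rests on these sizes and was not stated with the tables. Rows that name no gene were left out of library sizes. Named genes took 57.4% of 6700198 reads in pup 2 and 58.2% of 10014956 in pup 1.

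Identifiers were matched without version to GENCODE M21 (GRCm38), which named 1894 of 1973 genes. CPM used the total over named genes. Pups were compared by an exact binomial test (SciPy 1.17.1) on TMM sizes over all named genes (edgeR 4.0.16), threshold 0.05, with log2 ratios at a prior count of 0.5. Alternatives were library totals, DESeq2 1.42.0 size factors, no count filter, an edgeR exact test, either-strand counts, other denominators and single pups. The count columns differed by more than sampling noise (chi-square 66.2 per degree of freedom). Named genes were the 9 members, the 6 genes of miR-17-92 and the gene nearest in level to each member over 100 CPM. Members of seed families outside the clusters, cell type markers, Mir10a and Mir451a are named beside them. The members and lists were chosen with earlier results of these data known.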

Additional observations from a re-analysis of the deposited data

How the results depend on the processing

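No paired analysis was possible because the series holds 1 group. With all reads of the tables in the denominator the shares were 0.76% for miR-106b-25 and 0.0441% for miR-106a-363, and without Mir10a, the gene with the highest count, 1.55% and 0.0902%; a larger or smaller denominator sets these. Without the genes that share a mature sequence, the ratio of miR-106b-25 to miR-106a-363 was 18.8 and that to miR-17-92 was 0.423. Taking out placed counts of the other clusters can only raise these ratios, so this setting does not bound the effect of unplaced reads. With either pup alone the shares ran from 1.27% to 1.36% and from 0.0723% to 0.0802%, and the ratios from 17.0 to 17.5 and from 0.398 to 0.406. At 1 CPM 9 members counted as detected, at 100 CPM 6, and the shares of all genes at these thresholds were not counted.

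The edgeR exact test, with its dispersion from the same 2 libraries that it compared, called 0 members and 1 gene in all. The exact binomial test called 4 and 109. Of the 109, 41 were higher and 68 lower in pup 2, against 46 and 51 with library totals and 52 and 40 with DESeq2 size factors. With DESeq2 size factors the log2 ratios of Mir106b (0.011), Mir18b (0.0026) and Mir18 (0.014) changed sign, none of them past the threshold. TMM over the tested genes alone, chosen after seeing the data, called 4 members and 98 genes. No log2 ratio exists with 1 pup left out. An SD over 2 pups is imprecise at any depth, and Mir19b-2 and Mir18b rest on 23 to 97 counts a pup.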
